A study of Mus musculus with 12 samples.

Results

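The genes described here are 48 genes of the cell cycle and mitosis, chosen by symbol: 22 that act in the G1/S transition and in DNA replication, called S-phase genes below, and 26 that act from G2 through cell division, called mitotic genes. All 48 were found among the 53715 gene rows of the count table, and all 48 were among the 18542 genes with enough counts to be tested. The series holds RNA-seq of whole mouse spleen, with 12 libraries split evenly over 3 groups (n = 4 each). The 2DG spleens came from symptomatic mice aged 10 weeks that drank water with 2-deoxyglucose, an inhibitor of glycolysis, freely, at a dose of 6 g/L. The untreated 10-week spleens came from symptomatic mice of the same age without the drug, and the untreated 6-week spleens from mice before symptoms. Every group carried BXSB.Cg-Cd8atm1Mak Il15tm1Imx Yaa, called Yaa DKO in the labels, so targeted alleles of Cd8a and Il15 and the Yaa translocation, which copies an X-linked segment with Tlr7 onto the Y chromosome and drives a lupus-like disease, were present in the untreated samples too. The labels do not say when the drug was started, nor that each sample was its own mouse, so the p-values rest on a spread between samples that could be technical.

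As background, a cell that commits to division releases the E2F transcription factors from the retinoblastoma family of pocket proteins. E2F then switches on cyclin E, the MCM helicase that opens DNA, its loading factors Cdc6 and Cdt1, and the enzymes that make deoxynucleotides. Later in the cycle the MuvB complex, with B-Myb and Foxm1, switches on cyclin B, Cdk1, the mitotic kinases, the kinesins that move chromosomes and the checkpoint proteins at the kinetochore, often through a promoter element called the cell cycle genes homology region (CHR). In an adult mouse spleen, dividing cells include activated T and B cells, germinal centre B cells, plasmablasts, and the erythroid and myeloid precursors of the red pulp.

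The promoters of these genes were searched for elements known from genes of these phases. RefSeq windows of 300 bases on GRCm38.p6, holding 250 bases before each start and 50 from the start on, were matched by symbol for 41 of the 48 genes, as 44 windows because 3 genes had 2 each. Windows were searched on both strands for the E2F site (TTTGGCGC, TTTGCCGC, TTTCGCGC or TTTCCCGC, which can overlap each other on opposite strands) and for the CHR (TTTGAA). An E2F site stood in 8 of 23 S-phase windows (34.8%) and in 1 of 21 mitotic windows (4.8%), against 2.26% of the 32851 windows of all genes. The CHR stood in 4 of 23 S-phase windows (17.4%) and in 16 of 21 mitotic windows (76.2%), against 17.9% of all windows. The variant CHR TTTAAA was in 21.7% of S-phase and 38.1% of mitotic windows, against 13.2% of all, and the CCAAT box in 69.6% and 85.7%, against 37.4% of all. The windows printed below belong to the S-phase gene with an E2F match that had the largest change with 2DG (Cdc6), the S-phase gene with the most E2F matches (Mcm6), the mitotic genes with the largest positive and the largest negative change with 2DG (Ube2c and Bub1b), and a mitotic gene with both elements in 1 window (Cdk1). They are written 5′ to 3′ on the strand of the gene; capitals mark the E2F site in the first 2 and the CHR in the other three, on either strand.
Cdc6, chr11:98907901-98908200, plus strand: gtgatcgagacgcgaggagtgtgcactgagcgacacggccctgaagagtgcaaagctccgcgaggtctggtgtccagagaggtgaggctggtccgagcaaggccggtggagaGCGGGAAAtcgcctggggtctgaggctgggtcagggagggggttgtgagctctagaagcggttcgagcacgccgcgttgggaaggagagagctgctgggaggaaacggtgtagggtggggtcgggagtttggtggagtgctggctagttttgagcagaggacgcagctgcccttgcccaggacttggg
Mcm6, chr1:128359656-128359955, minus strand: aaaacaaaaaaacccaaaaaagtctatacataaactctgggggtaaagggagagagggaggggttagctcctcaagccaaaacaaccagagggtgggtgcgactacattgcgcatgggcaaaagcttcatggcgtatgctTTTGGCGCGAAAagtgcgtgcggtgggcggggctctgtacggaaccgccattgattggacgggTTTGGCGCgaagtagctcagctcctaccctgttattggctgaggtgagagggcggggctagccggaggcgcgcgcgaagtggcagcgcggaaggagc
Ube2c, chr2:164769679-164769978, plus strand: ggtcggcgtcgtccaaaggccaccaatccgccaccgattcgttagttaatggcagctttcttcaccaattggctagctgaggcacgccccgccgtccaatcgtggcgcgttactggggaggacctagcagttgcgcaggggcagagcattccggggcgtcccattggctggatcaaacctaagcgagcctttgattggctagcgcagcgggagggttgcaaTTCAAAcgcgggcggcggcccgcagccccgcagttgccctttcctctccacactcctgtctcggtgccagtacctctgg
Cdk1, chr10:69352863-69353162, minus strand: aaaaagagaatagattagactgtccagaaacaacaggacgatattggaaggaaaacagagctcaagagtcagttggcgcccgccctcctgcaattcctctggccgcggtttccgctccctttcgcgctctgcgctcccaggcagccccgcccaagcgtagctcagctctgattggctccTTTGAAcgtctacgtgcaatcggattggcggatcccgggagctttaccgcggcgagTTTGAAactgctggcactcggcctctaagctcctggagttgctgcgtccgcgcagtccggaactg
Bub1b, chr2:118597961-118598260, plus strand: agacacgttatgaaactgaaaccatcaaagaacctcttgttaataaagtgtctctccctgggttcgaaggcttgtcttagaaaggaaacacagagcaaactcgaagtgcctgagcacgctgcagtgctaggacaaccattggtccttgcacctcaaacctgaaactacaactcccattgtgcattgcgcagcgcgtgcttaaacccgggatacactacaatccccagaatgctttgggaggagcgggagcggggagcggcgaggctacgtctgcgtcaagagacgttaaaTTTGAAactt
In Mcm6, the matches began 110, 106 and 47 bases before the start, and the first 2 overlap on opposite strands. The match in Cdc6 began 138 bases before the start. Distances here are from RefSeq starts, which can differ from those of GENCODE, the annotation used for gene symbols. In GENCODE the Cdc6 gene begins at chr11:98907801, ahead of the printed window, so this match lies inside the annotated gene. Cdk1 had CHR matches 71 and 15 bases before its start and, not in capitals, an E2F match 131 bases before it. In Ube2c the CHR began 29 bases before the start and 6 CCAAT boxes lay upstream of it, while in Bub1b it began at base 41 of the transcript. In GENCODE the Ube2c gene begins at chr2:164769898 and the Cdk1 gene, on the minus strand, at chr10:69352938. The Ube2c CHR and the Cdk1 CHR nearer the start therefore also lie inside the annotated genes. The E2F, CHR and CCAAT hits given here are matches of letters, not shown binding sites.

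Library totals ran from 21581820 to 23835453 counts in 2DG spleens, from 20692818 to 26079979 in untreated 10-week spleens and from 15596040 to 22480545 in untreated 6-week spleens. Values below are CPM, the deposited counts over library sizes that were scaled by the trimmed mean of M values (TMM), and within a group they are given in the order of replicates 9, 10, 11 and 12 for 2DG, 5, 6, 7 and 8 for untreated 10-week and 1, 2, 3 and 4 for untreated 6-week spleens. All marker genes of B cells (8), T cells (8) and red pulp macrophages (8) were detected in every group, as a spleen should have. In whole spleen RNA, more dividing cells and more cell cycle RNA per dividing cell cannot be told apart.

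The 48 genes together took 0.783%, 0.896%, 0.713% and 0.589% of the counts in 2DG spleens, 0.652%, 0.380%, 0.711% and 0.561% in untreated 10-week spleens, and 0.674%, 0.522%, 0.579% and 0.496% in untreated 6-week spleens. Replicate 10 of the 2DG group was the highest of all and replicate 6 of the untreated 10-week group the lowest, and the groups overlapped. As a mean of log2 CPM over the 48 genes, the level was 6.58 ± 0.25 in 2DG, 6.32 ± 0.40 in untreated 10-week and 6.21 ± 0.21 in untreated 6-week spleens (SD, n = 4 each). The S-phase genes stood at 6.69 ± 0.26, 6.39 ± 0.37 and 6.27 ± 0.19 in the same order of groups, and the mitotic genes at 6.48 ± 0.25, 6.25 ± 0.43 and 6.17 ± 0.23.

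**Figure D1:**
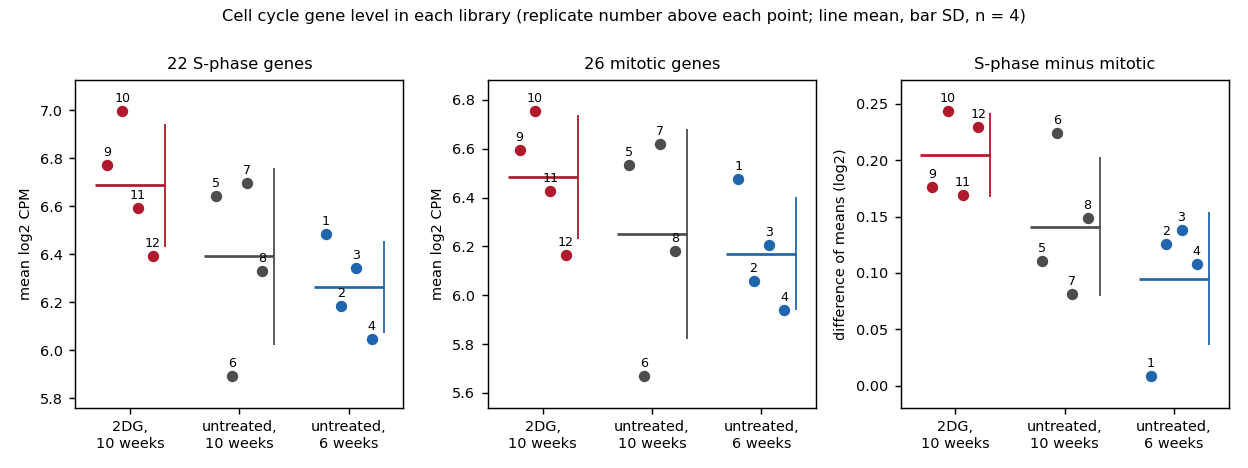
Mean log2 CPM of the 22 S-phase genes (left) and the 26 mitotic genes (middle), and the difference between them (right), for each library of the 3 groups; points are libraries with their replicate number, lines are group means and bars are SD (n = 4). Replicate 6 lies lowest in the left and middle panels, and in the right panel the 2DG libraries (0.169 to 0.243) lie above all untreated 6-week libraries (0.0087 to 0.139) and overlap the untreated 10-week libraries (0.0815 to 0.224).

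The genes moved up and down together from library to library. Replicate 10 held the highest CPM of all 12 libraries for 36 of the 48 genes, and the highest of the 2DG group for 47. Replicate 6 held the lowest CPM of all 12 libraries for 41 genes, and the lowest of the untreated 10-week group for 47. Among untreated 6-week spleens replicate 1 was highest for 46 genes and replicate 4 lowest for 42, and among 2DG spleens replicate 12 was lowest for 46. The coefficient of variation within a group had a median over the 48 genes of 17.0% in 2DG, 26.3% in untreated 10-week and 15.1% in untreated 6-week spleens. Over the 10450 genes of at least 10 CPM the medians were 6.25% in 2DG, 11.3% in untreated 10-week and 6.70% in untreated 6-week spleens, so the cell cycle genes spread more widely between libraries of each group than the typical gene did. Ube2c, Cenpf, Ccne2 and Mki67 were the most variable in untreated 10-week spleens, with coefficients of variation of 38.4%, 38.3%, 37.5% and 34.6%.

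**Figure D2:**
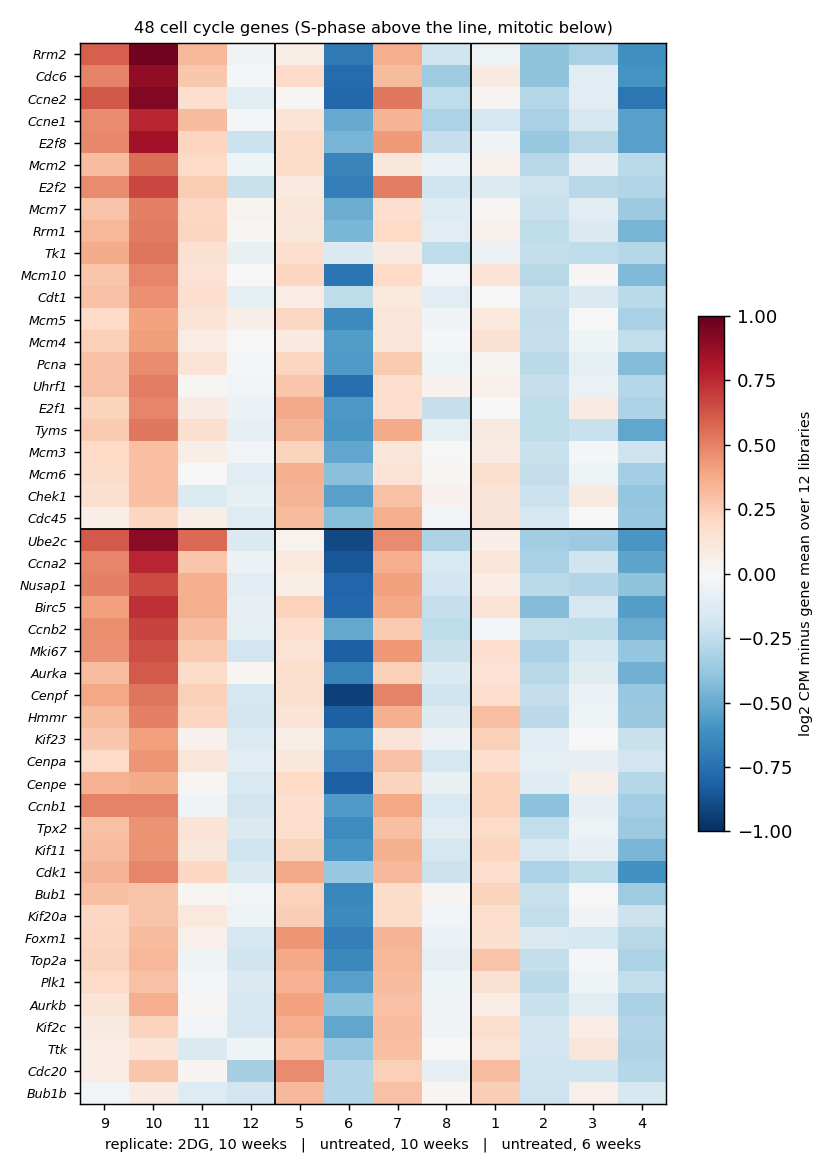
Level of each of the 48 genes (rows) in each of the 12 libraries (columns, labelled by replicate number and group), as log2 CPM minus the gene's mean over the 12 libraries; S-phase genes are above the horizontal line and mitotic genes below it. The column of replicate 6 is blue for all genes and that of replicate 10 red for all, and in replicates 5 and 7 every gene lies above its mean.

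The first comparison asks what the drug changed at 10 weeks. In 2DG spleens 42 of the 48 genes had a positive log2 change against untreated 10-week spleens (51.8% of all genes did), with a median of 0.25 against 0.0096 over all genes. None of the 48 passed an adjusted p of 0.05 in edgeR's quasi-likelihood test with Benjamini-Hochberg adjustment, where 7.42% of all genes did (401 or 2.16% higher and 975 or 5.26% lower). At an unadjusted p under 0.05, 5 of the 48 were higher and 0 lower, against 11.7% and 12.8% of all genes, and those 5 (Rrm2, Ccne1, Mcm7, Tk1 and Cdt1) were S-phase genes. DESeq2 also called 0 of the 48, against 4.27% of the genes it adjusted that were higher and 7.12% that were lower. No gene of the list separated the groups without overlap, against 4.48% of all genes that lay higher in 2DG and 7.91% that lay lower. The median was 0.27 over the S-phase genes and 0.22 over the mitotic genes. The median of the 48 was 0.09 without replicate 6 and 0.16 without replicate 10, and without replicate 12 the groups did not overlap for 6 of the 48, all higher, against 8.62% of all genes higher. Among 28 members given by library below, the log2 change moved by over 1.5 times or changed sign for 22 without replicate 6 and for 21 without replicate 10.

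The second comparison asks what changed with age and disease. Untreated 10-week spleens had positive log2 changes against untreated 6-week spleens for 45 of the 48 genes (51.5% of all genes), with a median of 0.13 against 0.0073 over all genes. None passed in edgeR, where 0.00539% of all genes did. None passed in DESeq2, where 2.59% of the genes it adjusted were higher and 1.17% lower. At an unadjusted p under 0.05 in edgeR there were 0, against 9.26% of all genes higher and 7.88% lower. Groups overlapped for all 48, while 3.64% of all genes lay higher and 3.33% lower without overlap. Medians were 0.15 over the S-phase and 0.12 over the mitotic genes. The median of the 48 was 0.02 without replicate 7, 0.04 without replicate 5 and 0.07 without replicate 4, and it was 0.24 without replicate 1 and 0.28 without replicate 6.

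The third comparison sets 2DG spleens at 10 weeks against untreated spleens at 6 weeks, so age and drug differ together; it shares its 2DG libraries with the first comparison and its untreated 6-week libraries with the second, which themselves share the untreated 10-week libraries. Here 47 of the 48 genes had positive log2 changes (49.5% of all genes), with a median of 0.35 against -0.0023 over all genes, 0.41 over the S-phase genes and 0.26 over the mitotic genes. None passed in edgeR, where 0.129% of all genes did (0.0378% higher and 0.0917% lower). Still, 19 of the 48 had an unadjusted p under 0.05 and were higher, against 8.75% of all genes, and 0 were lower, against 8.14% (16.9% in either direction). Of those 19, 12 were S-phase and 7 mitotic genes. DESeq2 called 5 of the 48 higher at an adjusted p of 0.05 (Rrm2, Ccne1, Tk1, Ccnb2 and Ube2c), against 3.39% of all genes it adjusted. In edgeR on these 2 groups alone 3 of the 48 passed as higher (Ccne1, Mcm7 and Tk1), against 4.43% of all genes, so the share was near that of all genes. Without replicate 12, edgeR called Cdt1 and Tk1, against 1.27% of all genes called higher. The groups did not overlap for 3 genes, all higher with 2DG (Ccne1, Mcm7 and Rrm2), against 7.98% of all genes higher and 7.69% lower; without replicate 12 the count was 25, against 12.7% of all genes higher, and without replicate 1 it was 22, against 11.2%.

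**Figure D3:**
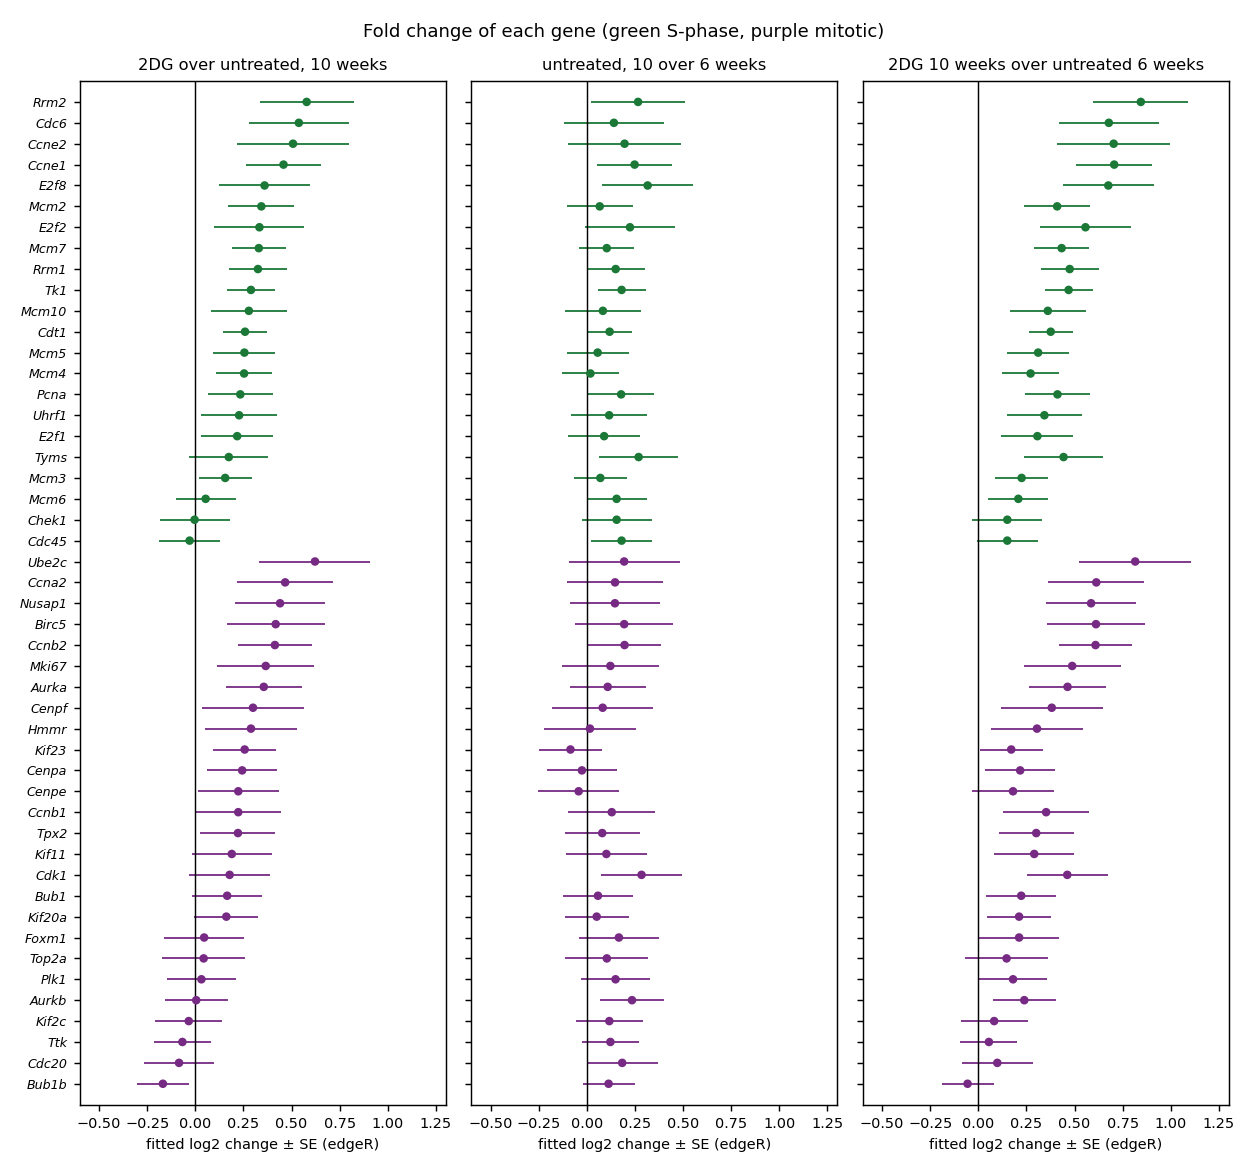
Fitted log2 change with its SE (edgeR) of each of the 48 genes in the 3 comparisons: 2DG over untreated at 10 weeks (left), untreated 10 weeks over 6 weeks (middle) and 2DG at 10 weeks over untreated at 6 weeks (right); green marks S-phase and purple mitotic genes, in the order of the left panel within each subset. Rrm2 (0.58) and Ube2c (0.62) lead the left panel, Bub1b (-0.17) ends it, and 42, 45 and 47 points lie right of 0 from left to right.

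Among the regulators of S-phase entry, E2f1, an activating E2F factor, had 26.01, 31.4, 23.6 and 21.47 CPM in 2DG, 29.0, 15.03, 25.2 and 19.0 CPM in untreated 10-week, and 22.4, 18.7, 23.6 and 18.0 CPM in untreated 6-week spleens. E2f2, a second activator, had 324, 370.5, 278 and 199.8 CPM in 2DG, 250, 145, 333 and 203 CPM in untreated 10-week, and 212, 202, 193 and 191 CPM in untreated 6-week spleens. The untreated 6-week values of E2f2 lay within a narrow band, which 3 of 4 2DG libraries and 2 of 4 untreated 10-week libraries exceeded. E2f8, an atypical E2F that represses, had 77.5, 99.3, 64.4 and 47.7 CPM in 2DG, 62.9, 40.2, 74.7 and 47.4 CPM in untreated 10-week, and 54.3, 42.7, 45.7 and 38.1 CPM in untreated 6-week spleens. Its log2 change of 0.32 ± 0.24 (SE) was the largest of the 48 between untreated 10-week and 6-week spleens, and it did not pass (edgeR adjusted p = 0.53); without replicate 7 it was 0.15.

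Ccne1 (chr7:38097984-38107534, GRCm38), the cyclin E that starts S phase with Cdk2, had 72.2, 88.2, 64.9 and 51.5 CPM in 2DG, 57.1, 36.7, 66.0 and 41.7 CPM in untreated 10-week, and 45.9, 41.4, 46.5 and 35.7 CPM in untreated 6-week spleens. Every 2DG library lay above every untreated 6-week library, while replicates 5 and 7 overlapped the 2DG range. Its log2 change was 0.46 ± 0.20 (SE) against untreated 10-week spleens (edgeR adjusted p = 0.174) and 0.71 ± 0.20 against untreated 6-week spleens (edgeR adjusted p = 0.114). Ccne2, its paralogue, ran from 49.4 to 101 CPM in 2DG, from 30.8 to 76.6 CPM in untreated 10-week and from 32.2 to 54.2 CPM in untreated 6-week spleens; it lies on the same bases as Ints8 on the other strand, and the library kit does not mark strand.

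Cdc6, which loads the MCM helicase at origins and whose E2F site is shown above, had 92.3, 121, 78.9 and 65.1 CPM in 2DG, 74.7, 38.5, 81.8 and 51.2 CPM in untreated 10-week, and 69.8, 49.5, 60.6 and 43.4 CPM in untreated 6-week spleens. Replicates 5 and 7 lay inside the 2DG range and replicates 6 and 8 below it. Cdt1, its partner in loading, had 65.3, 73.3, 60.1 and 50.03 CPM in 2DG, 56.2, 44.8, 57.3 and 49.6 CPM in untreated 10-week, and 53.5, 45.7, 48.3 and 44.2 CPM in untreated 6-week spleens. Its log2 change was 0.26 ± 0.11 (SE) with 2DG at 10 weeks (edgeR adjusted p = 0.184) and 0.38 ± 0.11 against 6 weeks (edgeR adjusted p = 0.127). In 2DG spleens 3 of 4 libraries exceeded all 8 untreated ones, with replicate 12 the exception.

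Of the helicase subunits, Mcm2 had 200.5, 238, 185 and 157 CPM in 2DG, 184, 102, 175 and 154 CPM in untreated 10-week, and 167, 134, 153 and 134 CPM in untreated 6-week spleens. Mcm5 had 216, 248, 206 and 195 CPM in 2DG, 217, 121, 204 and 183 CPM in untreated 10-week, and 201, 159, 187 and 149.8 CPM in untreated 6-week spleens. In Mcm5, only replicate 6 of the untreated 10-week group lay far below the 2DG values. The log2 change of the 6 subunits with 2DG at 10 weeks was 0.34 for Mcm2, 0.15 for Mcm3, 0.25 for Mcm4, 0.25 for Mcm5, 0.05 for Mcm6 and 0.33 for Mcm7, each with an SE between 0.14 and 0.17. Without replicate 6 it was 0.19 for Mcm2 and 0.10 for Mcm5. Mcm6, whose window holds 3 E2F matches, thus had the smallest change of the complex. Mcm7 lies on the same bases as Cops6 and Ap4m1 on the other strand.

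At the replication fork, Pcna, the sliding clamp of the polymerases, had 142, 160.2, 127 and 115 CPM in 2DG, 134, 78.2, 138 and 111 CPM in untreated 10-week, and 118, 96.3, 109 and 85.6 CPM in untreated 6-week spleens. Its processed copy Pcna-ps2 was listed with up to 1718 counts, so reads may have been split between them. Uhrf1, which brings the maintenance DNA methyltransferase to new DNA, had 132, 154, 109 and 106 CPM in 2DG, 131, 64.3, 122 and 112 CPM in untreated 10-week, and 112, 92.1, 103 and 88.8 CPM in untreated 6-week spleens. For both genes 3 of 4 untreated 10-week libraries lay within or near the 2DG range and replicate 6 below all others. Chek1, the kinase of the replication checkpoint, had 27.7, 30.6, 22.6 and 23.5 CPM in 2DG, 31.5, 17.1, 30.5 and 25.7 CPM in untreated 10-week, and 27.1, 21.4, 26.4 and 19.0 CPM in untreated 6-week spleens. It was among the 2 S-phase genes with no positive change with 2DG at 10 weeks (-0.0042 ± 0.18, SE), the other being the helicase cofactor Cdc45 (-0.03 ± 0.16), which shares bases with Ufd1 on the other strand.

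The enzymes of deoxynucleotide supply held the S-phase gene with the largest change. Rrm2 (chr12:24708241-24714146, GRCm38), the regulated subunit of ribonucleotide reductase, had 314, 405, 262 and 202 CPM in 2DG, 217, 127, 266 and 181 CPM in untreated 10-week, and 200.5, 156, 166 and 135 CPM in untreated 6-week spleens. All 4 2DG libraries lay above all 4 untreated 6-week libraries, and replicates 5 and 7 fell inside the 2DG range. Its log2 change was 0.58 ± 0.24 (SE) against untreated 10-week spleens (edgeR adjusted p = 0.174) and 0.84 ± 0.25 against untreated 6-week spleens (edgeR adjusted p = 0.125). Its partner subunit Rrm1, whose product is more stable through the cycle, had changes of 0.33 ± 0.15 and 0.47 ± 0.15 in the same comparisons.

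Tk1, the thymidine salvage kinase, had 74.9, 83.9, 64.4 and 55.2 CPM in 2DG, 65.1, 52.5, 61.8 and 48.7 CPM in untreated 10-week, and 55.7, 49.3, 48.6 and 47.5 CPM in untreated 6-week spleens. Against untreated 6-week spleens its log2 change of 0.47 ± 0.13 (SE) had the smallest adjusted p of the 48 in edgeR (0.102), with 1 untreated 6-week library, replicate 1, just above the lowest 2DG library. Tk1 shares bases with Afmid on the other strand, which was listed with up to 348 counts against at least 774 for Tk1. Tyms, thymidylate synthase, had 49.0, 58.7, 45.7 and 38.4 CPM in 2DG, 51.6, 27.2, 52.9 and 38.3 CPM in untreated 10-week, and 43.4, 34.1, 35.0 and 28.4 CPM in untreated 6-week spleens. Replicates 5 and 7 of Tyms lay inside the 2DG range and replicate 8 just below its lower end.

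Among the mitotic genes, Mki67 (chr7:135689784-135716361, GRCm38), the coat protein of mitotic chromosomes used as the marker of dividing cells, had 1798, 2048, 1574 and 1149 CPM in 2DG, 1449, 746, 1776 and 1127 CPM in untreated 10-week, and 1474, 1049, 1159 and 1003 CPM in untreated 6-week spleens. It had the highest level per length of the 48, at 135 CPM per kilobase of exon over the 12 libraries, followed by Rrm2 at 79.2 and Top2a at 61.4 CPM per kilobase. Its log2 change with 2DG at 10 weeks was 0.37 ± 0.25 (SE; edgeR adjusted p = 0.416), and 0.18 without replicate 6. Top2a, the topoisomerase that untangles sister chromatids, had 631, 682, 526 and 472 CPM in 2DG, 704, 346, 682 and 509 CPM in untreated 10-week, and 659, 459, 534 and 434 CPM in untreated 6-week spleens. For Top2a the highest library of the 12 was replicate 5, an untreated one, and the change with 2DG at 10 weeks was 0.04 ± 0.22 (SE).

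Of the cyclins and their kinase, Ccnb1, the cyclin that drives entry into mitosis, had 41.0, 41.2, 28.4 and 25.7 CPM in 2DG, 32.8, 19.7, 38.1 and 26.3 CPM in untreated 10-week, and 34.3, 21.9, 27.5 and 23.0 CPM in untreated 6-week spleens. A processed copy, Ccnb1-ps, was listed with up to 141 counts beside at least 375 for Ccnb1. Cdk1, the mitotic kinase whose CHR matches are shown above, had 101, 112, 92.3 and 72.1 CPM in 2DG, 104, 61.3, 100 and 68.8 CPM in untreated 10-week, and 90.4, 64.0, 67.2 and 52.4 CPM in untreated 6-week spleens. Both genes overlapped across all groups. Ccna2 and Ccnb2, the other mitotic cyclins, had log2 changes of 0.47 ± 0.25 and 0.41 ± 0.19 (SE) with 2DG at 10 weeks and 0.61 ± 0.25 and 0.61 ± 0.19 against 6 weeks.

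The mitotic kinases Plk1 and Aurkb differed little with 2DG. Plk1, which matures centrosomes, had 43.4, 46.8, 37.6 and 34.5 CPM in 2DG, 48.4, 26.1, 47.5 and 36.9 CPM in untreated 10-week, and 42.4, 31.8, 36.8 and 32.1 CPM in untreated 6-week spleens. Aurkb, the kinase of the chromosomal passenger complex, had 57.5, 67.5, 53.0 and 47.1 CPM in 2DG, 69.5, 39.5, 64.3 and 51.2 CPM in untreated 10-week, and 55.3, 45.0, 48.5 and 42.0 CPM in untreated 6-week spleens. Their log2 changes with 2DG at 10 weeks were 0.03 ± 0.18 and 0.0043 ± 0.16 (SE), and the sign of Aurkb turned with the scaling (-0.0071 with median-of-ratios factors). Birc5, the survivin subunit of the same passenger complex, had 108, 136, 105 and 77.1 CPM in 2DG, 96.0, 47.3, 106 and 69.7 CPM in untreated 10-week, and 90.0, 60.5, 72.6 and 55.8 CPM in untreated 6-week spleens. Its change was 0.42 ± 0.25 (SE; edgeR adjusted p = 0.352), or 0.23 without replicate 6, with replicates 5 and 7 inside the 2DG range. Foxm1, the transcription factor of the mitotic programme, had 51.7, 55.6, 46.2 and 39.5 CPM in 2DG, 60.5, 27.7, 56.3 and 42.6 CPM in untreated 10-week, and 49.9, 40.3, 39.6 and 36.9 CPM in untreated 6-week spleens. Replicates 5 and 7 of Foxm1 were above all 2DG libraries, and replicate 6 was below every other library.

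The spindle checkpoint and its target, the anaphase-promoting complex, held both ends of the mitotic list. Ube2c (chr2:164769898-164778822, GRCm38), the ubiquitin-conjugating enzyme of that complex, had 143, 175, 139 and 84.8 CPM in 2DG, 96.1, 50.2, 130.3 and 75.6 CPM in untreated 10-week, and 98.3, 73.8, 73.0 and 62.7 CPM in untreated 6-week spleens. In replicates 9, 10 and 11 it exceeded all 8 untreated libraries, and replicate 12 lay among them. Its log2 change of 0.62 ± 0.29 (SE) with 2DG at 10 weeks was the largest of the 48 (edgeR adjusted p = 0.214). Bub1b (chr2:118598211-118641591, GRCm38), the checkpoint kinase-like protein BubR1 that holds the complex off, had 96.3, 104, 89.8 and 85.8 CPM in 2DG, 123, 80.0, 120.5 and 99.5 CPM in untreated 10-week, and 116, 85.0, 102 and 87.8 CPM in untreated 6-week spleens. The groups overlapped, and its change of -0.17 ± 0.14 (SE) with 2DG at 10 weeks was the most negative of the 48 (edgeR adjusted p = 0.486), with -0.09 without replicate 5 and -0.28 without replicate 6.

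Cdc20, the activator of the same complex, had 51.5, 59.1, 49.7 and 38.7 CPM in 2DG, 67.9, 39.8, 57.5 and 46.0 CPM in untreated 10-week, and 60.5, 42.6, 42.4 and 40.2 CPM in untreated 6-week spleens. It shares bases with Elovl1 on the other strand, which was listed with up to 1845 counts against at least 655 for Cdc20. Ttk, the kinase Mps1 that starts the checkpoint, had 25.3, 26.5, 21.7 and 23.4 CPM in 2DG, 29.6, 18.5, 29.6 and 24.0 CPM in untreated 10-week, and 26.6, 21.04, 26.2 and 19.5 CPM in untreated 6-week spleens. In Cdc20 and Ttk the 2DG libraries lay within the range of the untreated 10-week ones, apart from replicate 12 of Cdc20 just below it.

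Of the motors and kinetochore proteins, Kif23, a kinesin of the central spindle, had 104, 115, 89.2 and 78.9 CPM in 2DG, 90.2, 56.4, 94.7 and 83.2 CPM in untreated 10-week, and 102, 80.8, 86.9 and 74.3 CPM in untreated 6-week spleens. Cenpe, the kinesin that carries chromosomes to the spindle equator, had 156, 159, 125 and 111 CPM in 2DG, 141, 69.7, 144 and 117 CPM in untreated 10-week, and 144, 112, 128 and 101 CPM in untreated 6-week spleens. These 2 had the most negative changes with age, -0.09 ± 0.16 for Kif23 and -0.04 ± 0.21 for Cenpe (SE), and replicate 6 was their lowest library. The 20 members not given library by library had log2 changes between -0.03 (Kif2c) and 0.51 (Ccne2) with 2DG at 10 weeks. Among these, Ccna2 shares bases with Exosc9, Nusap1 with Oip5 and Kif20a with Cdc23, each on the other strand, and Ccnb2 has a listed pseudogene copy, as Tyms does, so their counts may hold reads of those genes.

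Because the 48 genes moved together between libraries, each was also expressed relative to their mean in the same library, as a difference of log2 CPM. These levels have no test. The mean is that of the 48 genes themselves, so some of them must come out higher and others lower. Subtracting it removes a movement the 48 share and adds it to genes that do not share it. The shares over all genes are therefore not a like background for the 48. In 2DG against untreated 10-week spleens, 9 genes then separated the groups without overlap. Higher were Cdc6 and Aurka (against 1.03% of all genes), and lower were Bub1b, Cdc20, Kif2c, Cdc45, Aurkb, Plk1 and Top2a (against 6.41% of all genes). Relative Bub1b was -0.09, -0.16, -0.01 and 0.15 in 2DG spleens and 0.35, 0.55, 0.26 and 0.39 in untreated 10-week spleens, a mean difference of -0.41. Relative Cdc6 was -0.15, 0.06, -0.20 and -0.24 in 2DG spleens and -0.36, -0.50, -0.30 and -0.57 in untreated 10-week spleens, a mean difference of 0.30. On this scale replicate 6 was the highest untreated 10-week library for Bub1b, and for Cdc6 it lay above replicate 8.

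**Figure D4:**
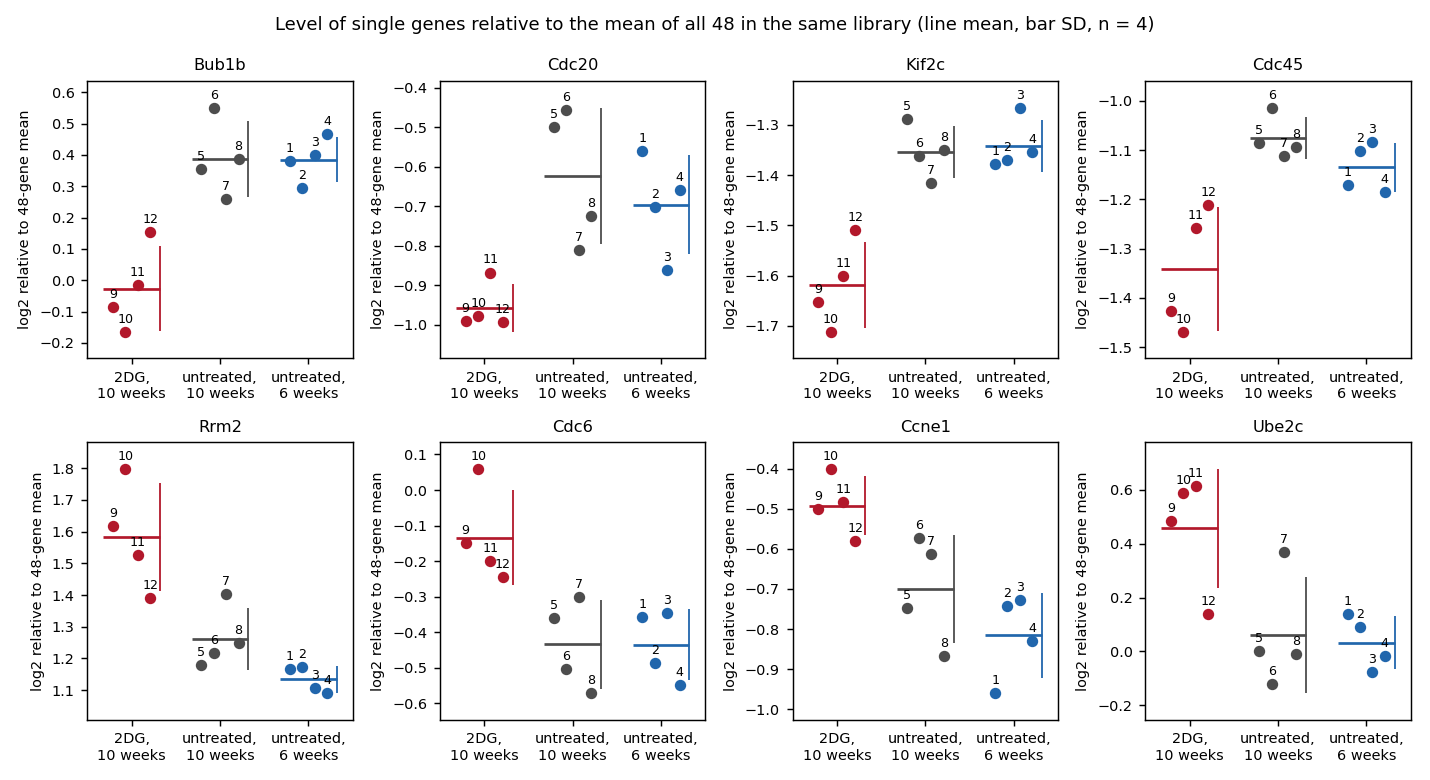
Level of 8 of the 48 genes, chosen after their values were seen, as log2 CPM minus the mean log2 CPM of all 48 in the same library, for each library of the 3 groups; points carry replicate numbers, lines are group means and bars SD (n = 4). For Bub1b, Cdc20, Kif2c and Cdc45 (upper row) all 2DG libraries lie below all untreated 10-week and 6-week libraries; in the lower row the groups at 10 weeks separate for Cdc6 and overlap for Rrm2, Ccne1 and Ube2c.

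The same relative levels at untreated 10 weeks against 6 weeks were higher without overlap for E2f8, Rrm2 and Tyms (1.16% of all genes) and lower for Kif23, Cenpa and Cenpe (1.17% of all genes). The shares over all genes carry the limit given above. In 2DG against untreated 6-week spleens, 6 S-phase genes were higher and 2 lower, and 2 mitotic genes were higher and 11 lower, against 1.79% of all genes higher and 11.4% lower. The difference of the S-phase mean minus the mitotic mean was 0.18, 0.24, 0.17 and 0.23 in 2DG, 0.11, 0.22, 0.08 and 0.15 in untreated 10-week, and 0.01, 0.13, 0.14 and 0.11 in untreated 6-week spleens. All 2DG libraries exceeded all untreated 6-week libraries, and in the untreated 10-week group replicate 6 overlapped the 2DG values.

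Other genes of the same processes were read from lists of their own. Of 32 other replication genes 0 passed in edgeR in any comparison. Their medians were 0.19 (2DG against untreated at 10 weeks), 0.11 (untreated 10 against 6 weeks) and 0.30 (2DG against untreated 6 weeks). In that order 7.42%, 0.00539% and 0.129% of all genes passed. At an unadjusted p under 0.05, 5 were higher and 1 lower in the first comparison (11.7% and 12.8% of all genes were), 1 and 0 in the second (9.26% and 7.88%), and 12 and 0 in the third (8.75% and 8.14%). Of 35 other mitosis genes 0 passed in edgeR, with medians of 0.19, 0.11 and 0.28 in the same order and 2, 1 and 10 higher at an unadjusted p under 0.05, with 0 lower in each, against the same shares of all genes.

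The regulators of G1 did pass in places. Of 19 G1 cyclins, cyclin-dependent kinases and pocket proteins, 1 rose and 2 fell with 2DG at 10 weeks, against 2.16% and 5.26% of all genes. Ccnd3, a D-type cyclin used by lymphoid and erythroid precursors, rose to 203 ± 18.6 CPM in 2DG spleens, against 142.5 ± 13.1 CPM in untreated 10-week spleens (SD, n = 4 each; log2 change 0.51 ± 0.08 SE, edgeR adjusted p = 0.00292). Ccnd2, the D-type cyclin of activated lymphocytes, fell to 249 ± 13.7 CPM in 2DG spleens, against 384 ± 78.7 CPM in untreated 10-week spleens (log2 change -0.62 ± 0.12 SE, edgeR adjusted p = 0.0109). Their kinase partner Cdk6 fell to 98.2 ± 9.34 CPM in 2DG spleens, against 141 ± 18.1 CPM in untreated 10-week spleens (log2 change -0.52 ± 0.09 SE, edgeR adjusted p = 0.0069). In all 3 genes the groups did not overlap, while 4.48% of all genes lay higher and 7.91% lower without overlap. None of the 19 passed in the other comparisons, where only 0.00539% (untreated 10 against 6 weeks) and 0.129% (2DG against untreated 6 weeks) of all genes did.

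Of 15 genes listed as inhibitors of cyclin-dependent kinases or antiproliferative genes, Mdm2 among them, 1 rose and 3 fell with 2DG at 10 weeks. Over all genes 2.16% were higher and 5.26% lower at that threshold. Cdkn2a, the locus of the senescence-linked inhibitors p16 and p19Arf, fell to 0.668 ± 0.197 CPM in 2DG spleens, against 2.33 ± 0.918 CPM in untreated 10-week spleens (SD, n = 4 each; log2 change -1.79 ± 0.31 SE, edgeR adjusted p = 0.0052). Cdkn1a, the p53 target p21, fell to 11.4 ± 1.54 CPM in 2DG spleens, against 18.5 ± 4.87 CPM in untreated 10-week spleens (log2 change -0.70 ± 0.17 SE, edgeR adjusted p = 0.0271). Mdm2, which degrades p53 and is its target, is on this list but is not itself antiproliferative. Its level fell to 108 ± 4.12 CPM in 2DG spleens, against 132 ± 14.1 CPM in untreated 10-week spleens (log2 change -0.29 ± 0.07 SE, edgeR adjusted p = 0.0274). Btg1, an antiproliferative gene of resting lymphocytes, rose to 447 ± 31.2 CPM in 2DG spleens, against 363 ± 42.9 CPM in untreated 10-week spleens (log2 change 0.30 ± 0.08 SE, edgeR adjusted p = 0.046). None of the 15 passed in the other comparisons, where only 0.00539% (untreated 10 against 6 weeks) and 0.129% (2DG against untreated 6 weeks) of all genes did. At an unadjusted p under 0.05 in edgeR, 3 of the 15 were higher and 3 lower in untreated 10-week than 6-week spleens. Of all genes, 9.26% were higher and 7.88% lower at that level. Cdkn2a and Cdkn1a were at 0.961 ± 0.17 and 10.8 ± 1.13 CPM in untreated 6-week spleens.

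Marker genes of cell types that divide or have recently divided were read from the same fit. The members of these lists that passed did so with 2DG at 10 weeks, where 2.16% of all genes passed as higher and 5.26% as lower. In the other 2 comparisons 0 passed, but there only 0.00539% (untreated 10 against 6 weeks) and 0.129% (2DG against untreated 6 weeks) of all genes did. All 16 erythroid markers had positive log2 changes with 2DG at 10 weeks (51.8% of all genes did), with a median of 1.03 against 0.0096 over all genes. Of the 16, 1 passed in edgeR (Hba-a2), against 2.16% of all genes that passed as higher. Hba-a2 had 4 to 35 counts a library, against 5653 to 89787 for its near-identical copy Hba-a1, which did not pass (edgeR adjusted p = 0.263), so reads may have been split between them. Their summed level was 20580, 25720, 21220 and 12190 CPM in 2DG, 8622, 2746, 19510 and 8825 CPM in untreated 10-week, and 10090, 9895, 6852 and 7641 CPM in untreated 6-week spleens. Replicate 6, lowest for 41 of the 48 cell cycle genes, was also lowest in this sum, and replicate 10, highest for 36, was highest. Replicate 5, where every cell cycle gene lay above its mean, had 8622 CPM in this sum. Replicate 6 was also lowest in summed B cell (2879 CPM) and germinal centre B cell markers (189 CPM), and highest in summed T cell (699 CPM) and red pulp macrophage markers (4054 CPM). Against untreated 6-week spleens all 16 erythroid markers were higher without overlap (7.98% of all genes) and 0 passed in edgeR (0.0378% passed as higher). At an unadjusted p under 0.05, 15 were higher (8.75% of all genes). The 16 are markers of the same lineage and may move together, so they are not 16 separate results. The part of erythroid cells in the levels of the cell cycle genes was not tested.

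Of 12 plasma cell markers, 11 fell with 2DG at 10 weeks (5.26% of all genes did), with a median log2 change of -1.46 against 0.0096 over all genes. Their summed levels were 1817 to 2737 CPM in 2DG, 4094 to 7242 CPM in untreated 10-week and 2369 to 4383 CPM in untreated 6-week spleens. At an unadjusted p under 0.05 in edgeR, 9 were higher and 0 lower in untreated 10-week than 6-week spleens (9.26% and 7.88% of all genes). With 2DG against untreated 6 weeks 0 were higher and 9 lower (8.75% and 8.14%). Of 12 markers of effector T and NK cells, 9 fell with 2DG at 10 weeks (5.26% of all genes did), with a median of -1.50. Their summed levels were 49.2 to 70.8 CPM in 2DG, 96.9 to 234 CPM in untreated 10-week and 66.6 to 95.1 CPM in untreated 6-week spleens. At the same unadjusted p, 11 were higher and 0 lower in untreated 10-week than 6-week spleens (9.26% and 7.88% of all genes). With 2DG against untreated 6 weeks 0 were higher and 2 lower (8.75% and 8.14% of all genes). Neutrophil precursor markers, 10 in all, had 0 passing and summed levels of 415 to 1120 CPM in 2DG, 252 to 2565 CPM in untreated 10-week and 497 to 1472 CPM in untreated 6-week spleens, with replicate 6 highest. Of 10 tested germinal centre B cell markers, Efnb1 rose and Fas fell with 2DG at 10 weeks, against 2.16% and 5.26% of all genes. The 10 summed to 316 to 437 CPM in 2DG, 189 to 582 CPM in untreated 10-week and 399 to 487 CPM in untreated 6-week spleens. Of 10 megakaryocyte and platelet markers Vwf rose, of 8 red pulp macrophage markers C1qa fell, and 0 of 8 B cell and 0 of 8 T cell markers passed, against the same shares of all genes. All 10 megakaryocyte and platelet markers had positive log2 changes with 2DG at 10 weeks (median 0.61). At an unadjusted p under 0.05 in edgeR, 7 were higher and 0 lower (11.7% and 12.8% of all genes). Between untreated 10-week and 6-week spleens all 10 were negative (median -0.68), with 0 higher and 8 lower at that level (9.26% and 7.88%). With 2DG against untreated 6 weeks their median was -0.12, with 0 higher or lower (8.75% and 8.14%). The part of these cell types in the levels of the cell cycle genes was likewise not tested.

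**Figure D5:**
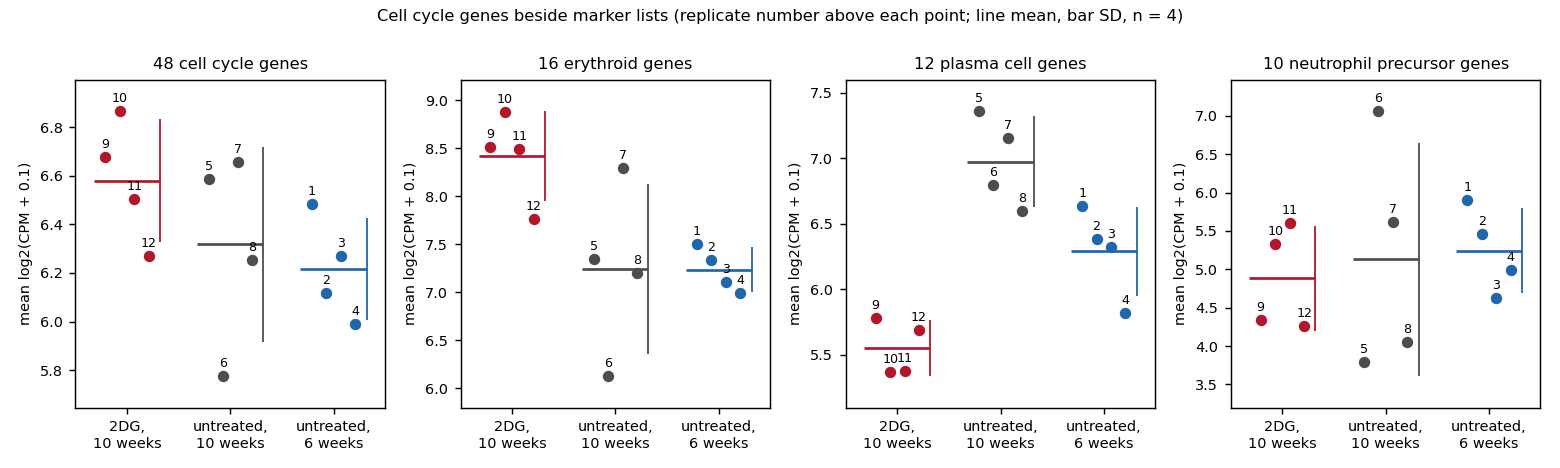
Mean log2 (CPM + 0.1) of the 48 cell cycle genes beside that of 16 erythroid, 12 plasma cell and 10 neutrophil precursor markers in each library of the 3 groups; points carry replicate numbers, lines are group means and bars SD (n = 4). Replicate 10 is highest and replicate 6 lowest in the first 2 panels, all 2DG libraries lie below all untreated 10-week libraries in the plasma cell panel, and replicate 6 is highest in the neutrophil precursor panel.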

How the data were processed

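Libraries were poly(A)-selected with the Illumina TruSeq RNA v2 kit, per the labels' protocols; that kit keeps no strand information. What the authors deposited is a single table of whole-number gene-level counts. The submitters' processing notes list Bowtie2 2.2.0, RSEM 1.2.12 and the build GRCm38, with no role for any of them. The rounding of counts and the assignment of reads from near-identical copies are not given in the sources used here. Gene rows were matched by Ensembl identifier to GENCODE M21 (GRCm38), which gave a symbol for 53620 of 53715. Groups came from the sample titles. Library pairs within a group differed by more than counting noise (chi-square per gene of 10.5 to 85.2 over 18 pairs).

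The fit was edgeR 4.0.16 in R 4.3.3 on the deposited counts (TMM, filterByExpr, robust quasi-likelihood, all 12 libraries), with Benjamini-Hochberg adjustment over 18542 genes and a threshold of 0.05; it was tested on simulated counts. SE is the size of the log2 change divided by the square root of F. CPM use TMM-scaled library sizes; mean log2 levels of marker lists add 0.1 CPM. Depth is the range of totals given in the report, and the spread is between 4 libraries a group. The 48 genes, the other gene lists and the rule for genes given library by library (22 fixed symbols, and in each comparison the 2 most positive and 2 most negative log2 changes) were chosen with earlier results of these data known. Alternatives were DESeq2 1.42.0, median-of-ratios factors, no filter, fits of the compared groups only, removal of immunoglobulin genes, and each library left out in turn. Promoter windows came from RefSeq; 7 of the 48 genes had none in that table.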

Additional observations from a re-analysis of the deposited data

Results flagged for a closer look

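Among 159 groups of 4 values examined (the CPM of each of the 48 genes and the summary levels, per group), 1 had a library far from the other three. Cdc20 stood at 60.6 CPM in replicate 1 of the untreated 6-week spleens, with the other libraries of that group at 40.2, 42.4 and 42.6 CPM. The gap took 0.881 of the group's range, above Dixon's 95% critical value for 4 values. Chance alone flags about 1 in 20 such groups. Replicate 1 was also the highest untreated 6-week library for 46 of the 48 genes.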

How the results depend on the processing

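No paired analysis was possible because the groups share no replicate numbers. Under DESeq2, median-of-ratios factors, no filter, the compared groups only and removal of immunoglobulin genes, the median log2 change of the 48 genes ran from 0.237 to 0.248 for 2DG against untreated at 10 weeks, from 0.126 to 0.142 for untreated 10 against 6 weeks and from 0.343 to 0.357 for 2DG against untreated 6 weeks. With each library left out in turn the ranges were 0.0854 to 0.324, 0.0213 to 0.284 and 0.243 to 0.444. The count of the 48 past the threshold stayed at 0 in the first 2 comparisons under every alternative; in the third it was 5 with DESeq2 (3.39% of all genes were higher there), 3 in the fit of the compared groups (4.43%) and 0 to 2 with a library left out. Genes without overlap ran from 0 to 6 in the first comparison, 0 in the second and 3 to 25 in the third with a library left out; the 6 and the 25 came without replicate 12, where 8.62% and 12.7% of all genes were higher without overlap. The cause of these moves was not tested.

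Of 1428 values of 28 genes under the alternatives, 44 changed sign, 8 passed the threshold anew and 0 lost it. Aurkb with 2DG at 10 weeks was -0.0054 with DESeq2, -0.0071 with median-of-ratios factors, -0.0025 with no filter and -0.0019 without immunoglobulin genes. With a library left out, signs changed with 2DG at 10 weeks for Top2a (-0.13 to 0.17), Plk1 (-0.13 to 0.14), Aurkb (-0.13 to 0.12), Cdc20 (-0.20 to 0.06), Foxm1 (-0.14 to 0.19), Chek1 (-0.16 to 0.10) and Ttk (-0.20 to 0.0137). They changed for untreated 10 against 6 weeks for Mki67 (-0.0768 to 0.31), Top2a (-0.024 to 0.28), Ccnb1 (-0.0222 to 0.28), E2f1 (-0.0678 to 0.24), Mcm2 (-0.0294 to 0.22), Mcm5 (-0.0411 to 0.21), Cdc6 (-0.0242 to 0.32), Ube2c (-0.0549 to 0.39), Kif23 (-0.16 to 0.059) and Cenpe (-0.15 to 0.15). For 2DG against untreated 6 weeks they changed for Bub1b (-0.12 to 0.0381) and Ttk (-0.0203 to 0.12).

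Over all genes, edgeR called 1376, 1 and 24 in the 3 comparisons, DESeq2 called 2304, 682 and 902, edgeR with no filter 1145, 102 and 98, and edgeR on the compared groups only 581, 0 and 1367. With a library left out the ranges were 514 (without replicate 11) to 2209 (without replicate 8), 0 to 1563 (without replicate 8) and 1 to 354 (without replicate 7). Counting error limits none of the 48 genes, whose lowest count was 294 (E2f1); 4 libraries a group with a biological coefficient of variation of 0.114 in 2DG, 0.242 in untreated 10-week and 0.128 in untreated 6-week spleens limit the tests.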

Other observations

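Outside the 48 genes, 4 genes of the lists of other replication and mitosis genes separated 2 groups without overlap; they are named after their values were seen and none passed an adjusted p of 0.05 in edgeR. They are 1 of 32 replication genes lower with 2DG at 10 weeks, against 7.91% of all genes, and 2 of 32 replication and 1 of 35 mitosis genes higher with 2DG than in untreated 6-week spleens, against 7.98%, so the shares are no higher than over all genes. Pold2, a subunit of DNA polymerase delta, averaged 28.4 CPM in 2DG spleens, against 33.8 CPM in untreated 10-week spleens. Gins4, a subunit of the GINS complex of the replicative helicase, averaged 38.5 CPM in 2DG spleens, against 30.3 CPM in untreated 6-week spleens. Lig1, the ligase that joins Okazaki fragments, averaged 123 CPM in 2DG spleens, against 90.8 CPM in untreated 6-week spleens. Pbk, a mitotic kinase, averaged 36.1 CPM in 2DG spleens, against 24.1 CPM in untreated 6-week spleens.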
